A study of Mus musculus with 18 samples.

Results

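The comparison described here set intestinal tumours of mice on the SJW diet against intestine of mice on the same diet that had received saline and no carcinogen. Its members were the 3 arrays titled as SJW/AOM tumours and the 3 arrays titled as SJW/Sal non-tumour tissue, 6 of the 18 arrays in the series, chosen by title and not by any measured value. SJW is St. John's wort, a herbal preparation given in the diet, and AOM is azoxymethane, an alkylating colon carcinogen given by injection. The SJW tumour samples came from the tumour area of the intestine after AOM, and the SJW saline samples from intestine after saline injection, so diet was shared while carcinogen and tumour tissue were not. All mice were male C57BL/6, and the labels give no age, dose or time. Every sample was labelled with Cy5 (red) and hybridised against Cy3-labelled (green) RNA pooled from 10 organs or stages of Swiss Webster mice, among which there is no intestine. Dyes were not swapped. The series holds 3 further groups on the control diet (AOM tumour, AOM non-tumour and saline) and SJW AOM non-tumour tissue, with 3 arrays each. The series design calls the 3 samples of a group biological replicates. Whether they came from separate mice is not given. A p-value therefore measures the spread between samples within groups, estimated over all 18 arrays.

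The intestinal epithelium is renewed from stem cells at the crypt base, which are kept dividing by Wnt signals. Daughter cells leave the crypt and mature into absorptive cells, mucus-secreting goblet cells and hormone-secreting enteroendocrine cells. Tumours that follow azoxymethane in rodents commonly carry mutations that switch on the Wnt effector beta-catenin.

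The tissue is labelled as small intestine, and the protocol for RNA extraction mentions liver. In the arrays, markers of the colon stood far above the pool in saline tissue. Of 24 colon-region genes, 4 were at least 1 log2 unit above the pool on all 3 SJW tumour arrays and 15 on all 3 SJW saline arrays. Of 26 small-intestine genes, 3 passed that level on all tumour arrays and 7 on all saline arrays. Car1, a carbonic anhydrase abundant in colon, lay at log2 ratios of 1.91, 4.31 and 3.99 on the tumour arrays and 8.38, 7.50 and 8.36 on the saline arrays, with a pool signal 1.15 lower on the tumour arrays. Fabp1, the fatty acid binding protein of the proximal small intestine, lay at -2.05, -2.47 and -1.89 on the tumour arrays and -1.64, -1.51 and -1.51 on the saline arrays, below a pool that contains liver. Sis, the small-intestinal sucrase, was between 0.14 and 1.48 on all 6 arrays. None of 11 measured liver markers reached 1 log2 unit above the pool on all arrays of either group, whereas 19 of 19 general epithelial markers did so in both groups. The region is therefore written as intestine throughout, since its small-intestinal label goes with colon-type markers.

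**Figure D1:**
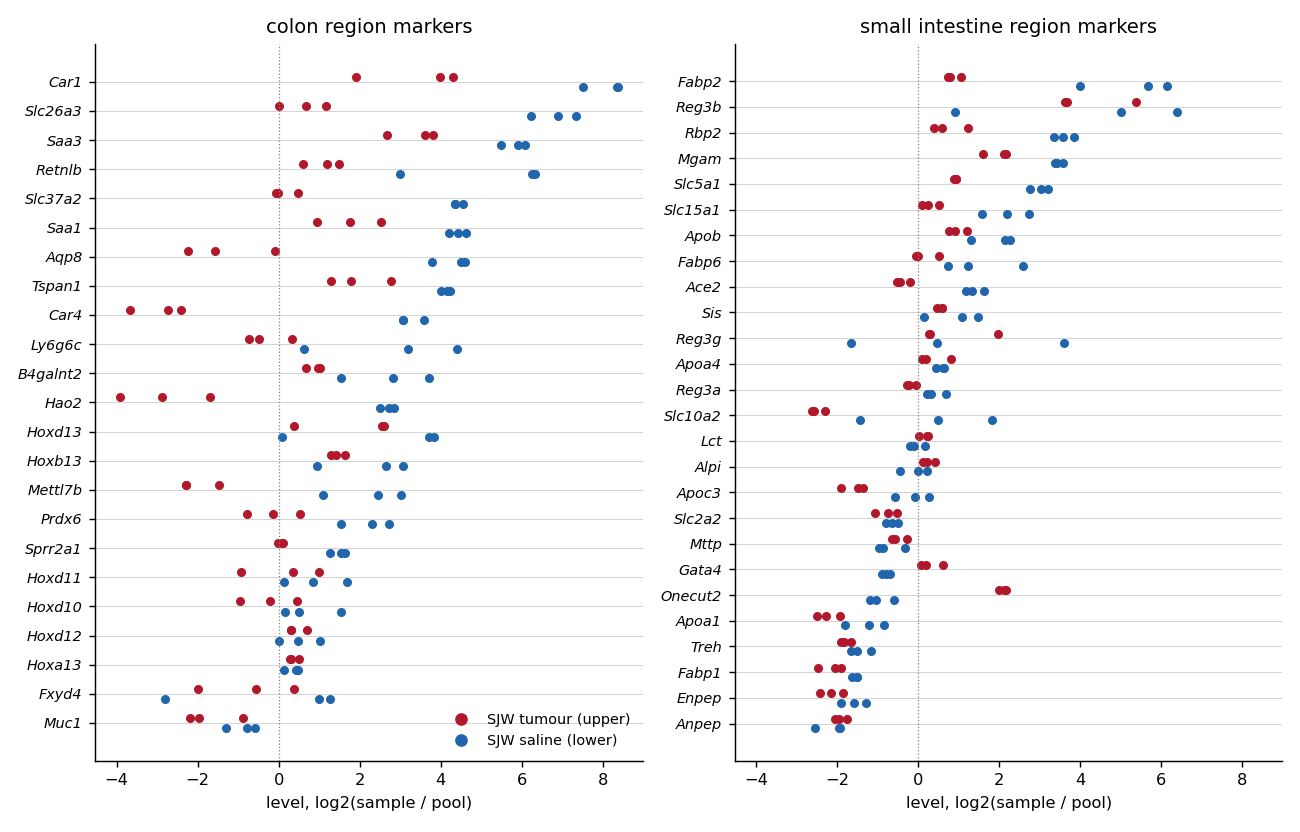
Levels of 23 of the 24 colon-region genes (left) and 26 small-intestine genes (right) on each SJW tumour array (red, upper row of each gene) and SJW saline array (blue, lower row), as log2 of sample over pool. Colon genes such as Car1, Slc26a3 and Aqp8 stand highest in saline tissue and lower in tumours. Most small-intestine genes lie near or below the pool in both groups. Fabp2, Rbp2 and Mgam are among those above it, and the pool signal of Fabp2 was 1.08 lower on tumour arrays.

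A level below is the log2 ratio of sample (red) to pool (green), and a change is the mean of 3 SJW tumour arrays minus the mean of 3 SJW saline arrays, with its standard error from limma. The threshold is an adjusted p of 0.05 by the Benjamini-Hochberg method over all 26073 genes, of which 16799 have a gene symbol. Tumour arrays correlated with each other at r = 0.922 to 0.958 and saline arrays at 0.942 to 0.950, against 0.714 to 0.804 between tumour and saline arrays. The tumour arrays lay on slides 4 and 5, scanned on the second scan day, and the saline arrays on slides 1, 2 and 3, scanned on the first, so that slide, scan day and tumour cannot be told apart. The green signal of the common pool itself differed by at least 1 log2 unit between tumour and saline arrays for 969 genes (3.72%), and such genes are marked below. On 6 arrays of the series, among them SJW saline replicates 1 and 3, the pool was brighter overall. Heat shock and handling-stress genes counted 8 up and none down of 16 (5 up without tumour replicate 3), with list means of -0.75 to -0.07 on tumour arrays and -1.29 to -1.13 on saline arrays. The part of these differences in the results below was not tested.

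SJW tumours differed from SJW saline tissue in 9428 of 26073 genes (36.2%), 3560 higher in tumours (13.7%) and 5868 lower (22.5%). The groups did not overlap for 13154 genes (50.5%). The median size of a called change was 0.82 on the log2 scale, and the large changes were mostly losses: 229 called genes were higher by at least 2 log2 units and 653 lower by at least 2. When log ratios were centred by array median, without loess, 4149 genes were higher and 2641 lower, and the median change of all genes was 0.12, against -0.07 with loess. The balance of small gains and losses therefore rests on the normalization. Small changes below are to be read against that shift. The counts of each gene list below are to be read against the shares of all genes, 13.7% higher and 22.5% lower.

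Mt4, a metallothionein known from squamous epithelium, lay at 5.89, 5.24 and 5.87 in SJW tumours and at -0.64, -0.03 and -0.32 in SJW saline tissue. It was the gene with the largest rise among those with a proper symbol, 63.9-fold (6.00 ± 0.70, adjusted p = 9.52e-06). Its relative Mt3, the metallothionein first described in brain, rose by 4.08 ± 0.44 (adjusted p = 4.66e-06). Tnfrsf11b encodes osteoprotegerin, a decoy receptor for the bone cytokine RANKL. It lay at 4.35, 4.72 and 5.38 in tumours and -0.10, 0.08 and 0.11 in saline tissue, where 2 of 3 arrays measured it above background, a 27.5-fold rise (4.78 ± 0.46, adjusted p = 1.67e-06). Ptn, the heparin-binding growth factor pleiotrophin, rose 16.7-fold and Htra1, a secreted serine protease, 15-fold. For Otop1, a proton channel, no saline array was well above background, and tumours were at least 11.4-fold higher.

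Wnt target and feedback genes rose in SJW tumours. Of 25 measured genes, 21 were higher and 1 lower at the threshold, and the median change was 1.91, against -0.07 for all genes. Those that rose included inhibitors that the pathway itself induces. Nkd1, an intracellular brake on Wnt signalling, lay at 3.75, 2.95 and 3.57 in tumours and -1.49, -1.36 and -1.74 in saline tissue. Every tumour array was above the pool and every saline array below it, a 30.9-fold difference (4.95 ± 0.29, adjusted p = 4.58e-08). Notum, an enzyme that strips the lipid from Wnt ligands, lay at 4.50, 3.60 and 3.64 in tumours against -0.47, -0.12 and -0.76 in saline tissue. Its groups were well apart as well, and it was 20.6-fold higher (4.36 ± 0.38, adjusted p = 7.31e-07). Wif1 is a secreted Wnt-binding inhibitor. It lay at 5.99, 3.56 and 5.63 in tumours and 0.13, -0.16 and 0.54 in saline tissue (4.89 ± 0.58, adjusted p = 1.12e-05), and tumour replicate 2 was its lowest tumour value. Without that replicate the change of Wif1 was 5.64. Among transcription factors, Sp5 lay at 3.36, 3.29 and 3.54 in tumours and -0.95, -0.68 and -0.69 in saline tissue, with 2 of 3 saline arrays above background (4.17 ± 0.32, adjusted p = 2.37e-07). Its tumour values lay close together, and on the scanner's own log ratio its change was larger, 5.68.

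Further members rose less. Axin2, the negative regulator most often used as a readout of Wnt activity, lay at 3.85, 3.02 and 3.35 in tumours and 1.11, 0.56 and 1.29 in saline tissue (2.42 ± 0.28, adjusted p = 9.6e-06). It was above the pool in both groups, and its pool signal was 1.01 higher on tumour arrays. Znrf3, a membrane ligase that removes Wnt receptors, rose by 1.91 ± 0.27 (adjusted p = 5.57e-05). Cd44, a hyaluronan receptor and Wnt target, rose by 1.98 ± 0.31 (adjusted p = 0.000152), and its 3 probes gave changes of 0.61 to 1.98. Means of the whole list on single arrays were 2.23, 1.82 and 2.23 in tumours, and 0.01, -0.04 and 0.11 in saline tissue. The members that did not rise were Ascl2, a stem-cell transcription factor (change 0.04, adjusted p = 0.905), Ephb2 (-0.18), Kremen1 (-0.24) and Slc12a2, a chloride-loading cotransporter that fell by 0.83 (adjusted p = 0.0125), a call lost without any 1 of saline replicate 3, tumour replicate 1 or tumour replicate 3. For Kremen1 the pool signal differed by 3.08 between tumour and saline arrays, and the red channel alone gave a change of 3.50, so its direction is not settled.

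Sp5 and Mmp7 are shown because they belong to the 4 of 16 Wnt-list genes with a RefSeq promoter (Sp5, Tnfrsf19, Tiam1 and Mmp7) whose window holds a TCF/LEF motif, searched as CTTTGAT or CTTTGAA on both strands. The same letters stand in a promoter of 9.88% of all 27025 RefSeq genes with one, and in 8.65% of all 32851 promoters of this length. Each sequence runs from 250 bases before to 50 after the gene's start on GRCm38.p6, plus strand, with the match in capitals. The Sp5 window is chr2:70474673-70474972, and its match starts 104 bases before the gene's start. The Mmp7 window, 1 of 2 listed, is chr9:7691840-7692139, and its match, on the opposite strand, starts 4 bases after the gene's start. A match describes letters and shows no binding.
Sp5: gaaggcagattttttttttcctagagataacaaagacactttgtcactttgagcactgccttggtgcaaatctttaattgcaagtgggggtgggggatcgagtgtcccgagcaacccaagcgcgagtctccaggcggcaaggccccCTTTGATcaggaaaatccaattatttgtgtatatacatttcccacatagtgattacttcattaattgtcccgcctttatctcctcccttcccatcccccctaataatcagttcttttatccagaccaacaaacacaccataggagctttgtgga
Mmp7: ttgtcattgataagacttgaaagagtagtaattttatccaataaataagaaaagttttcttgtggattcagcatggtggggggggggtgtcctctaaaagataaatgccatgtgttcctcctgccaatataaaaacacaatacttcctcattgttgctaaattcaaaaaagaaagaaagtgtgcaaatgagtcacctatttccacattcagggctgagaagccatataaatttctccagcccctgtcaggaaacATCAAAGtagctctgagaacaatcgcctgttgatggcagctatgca

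**Figure D2:**
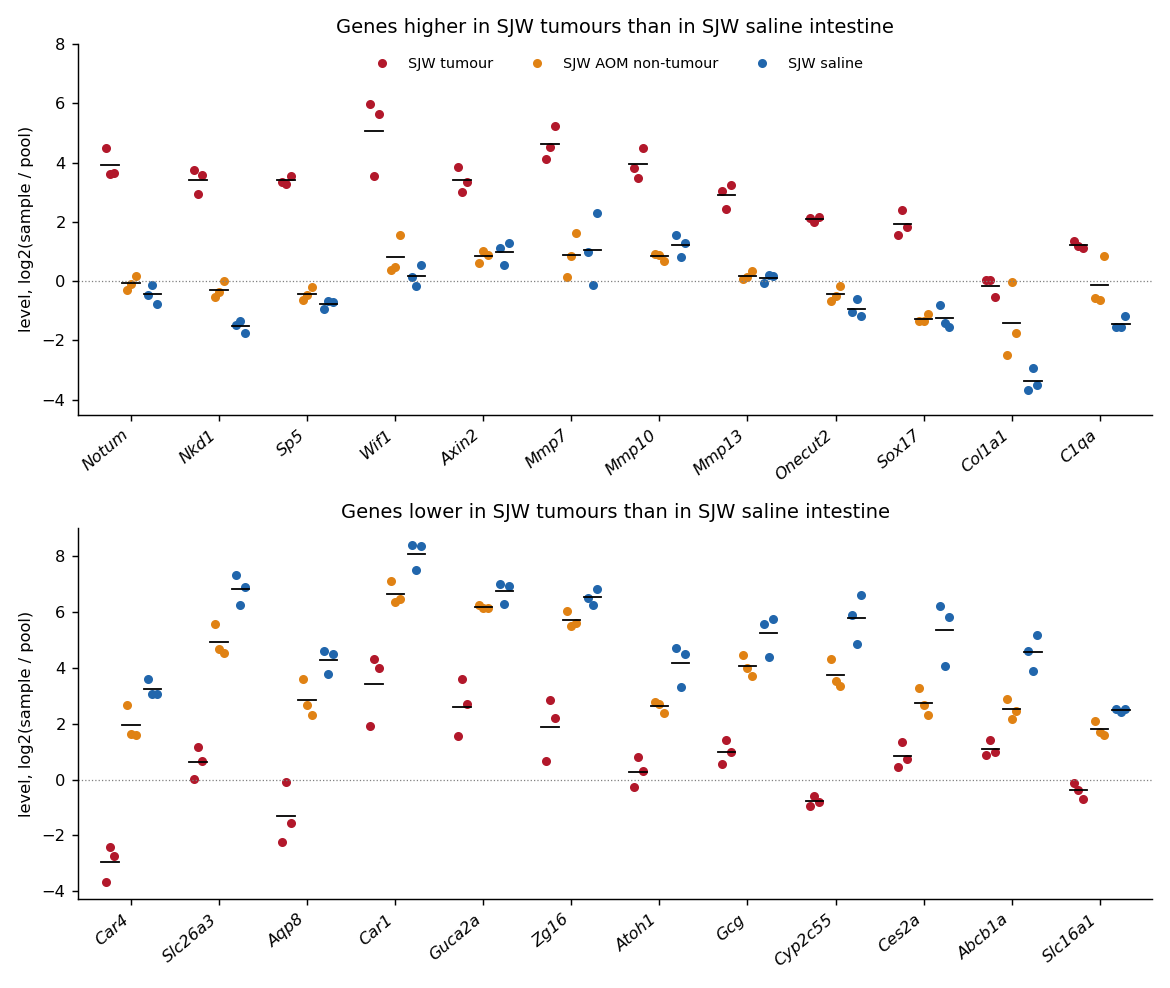
Level (log2 of sample over pool) of 12 genes that were higher (top) and 12 that were lower (bottom) in SJW tumours, on the 3 arrays each of SJW tumour (red), SJW AOM non-tumour (orange) and SJW saline tissue (blue), with bars at the group means. Tumour and saline points are apart for every gene shown, and for most of the lower set the AOM non-tumour points lie between them.

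Stem-cell genes moved in both directions. Of 12 measured, 9 rose and 1 fell (2 without saline replicate 2), with a median change of 1.23. The list shares members with the Wnt list, among them Axin2, Znrf3, Tnfrsf19 and Ascl2, so the counts are not separate results. Other lists share members too. Mmp7 is on the Wnt, protease and Paneth cell lists, and Zg16 on the goblet cell and pancreatic lists. Car4 and Aqp8 are on the colon-region and colonocyte transport lists. Ascl2 (0.04) and Cdca7 (-0.46, adjusted p = 0.117) did not pass. Lgr5, the receptor that marks crypt-base stem cells, lay at 4.07, 2.88 and 3.21 in tumours and 1.85, 1.00 and 2.00 in saline tissue. The groups did not overlap, and the change was 1.77 ± 0.36 (adjusted p = 0.00134). Smoc2, a matricellular protein of the same cells, rose by 2.25 ± 0.25 (adjusted p = 5.93e-06). The gene that fell was Lrig1, a stem-cell protein that restrains EGF receptors. It lay at -0.90, -1.04 and -1.12 in tumours and 1.26, 1.27 and 1.57 in saline tissue, all 3 tumour arrays below the pool and all 3 saline arrays above it (-2.39 ± 0.19, adjusted p = 3.29e-07).

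Genes of regenerating or fetal-like epithelium rose in 9 of 15 cases and fell in none, with a median change of 0.82, and 4 rose in the authors' deposited table. Clu, the chaperone clusterin and a mark of revival stem cells, lay at -0.48, 0.94 and 0.01 in tumours and -2.78, -2.86 and -4.07 in saline tissue (3.39 ± 0.39, adjusted p = 8.81e-06). Il33, an alarm cytokine of epithelium and stroma, rose by 2.05 ± 0.29 (adjusted p = 5.06e-05). Among keratins, Krt23 stood apart at 4.18, 4.21 and 4.36 in tumours against 0.97, -0.22 and 1.26 in saline tissue, a 12-fold rise (3.58 ± 0.41, adjusted p = 8.78e-06). Krt7, a keratin of simple ducts, rose by 1.11 ± 0.18. The 21 measured keratin and cornified-envelope genes together counted 4 up and 6 down (3 down without saline replicate 2 or 3 or tumour replicate 1 or 3). The shares over all genes were 13.7% up and 22.5% down.

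BMP genes, whose signals oppose stemness and promote maturation along the crypt, split by ligand. Of 15 measured, 7 rose and 3 fell (1 without saline replicate 1), with a median of 0.34. Bmp7 rose by 2.55 ± 0.23 (adjusted p = 8.97e-07) and Bmp4, a ligand of the mesenchyme beneath the epithelium, by 1.19 ± 0.16 (adjusted p = 3.12e-05). Bmp3, an atypical member that antagonises BMP signals, lay at -0.82, 0.09 and -0.63 in tumours and 2.51, 1.21 and 2.74 in saline tissue (-2.61 ± 0.34, adjusted p = 3.2e-05). The transcriptional target Id3 was higher in tumours, at 1.41, 1.64 and 1.58 against -0.38, -0.82 and -0.48 in saline tissue (2.10 ± 0.15, adjusted p = 1.25e-07). Id1, another such target, did not pass (0.07).

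Matrix-degrading enzymes rose together: 15 of 21 measured metalloproteases, inhibitors and plasminogen activators were higher and 1 lower, with a median change of 1.18. Mmp7, matrilysin, a protease of epithelial tumour cells and Paneth cells, lay at 4.11, 4.53 and 5.23 in tumours and 0.98, -0.13 and 2.31 in saline tissue. Saline values ranged widely, so that the change of 3.57 ± 0.54 (adjusted p = 0.000109) became 2.97 without saline replicate 2 and 4.20 without saline replicate 3. Mmp10, stromelysin 2, lay at 3.83, 3.49 and 4.50 in tumours and 1.57, 0.80 and 1.30 in saline tissue (2.71 ± 0.27, adjusted p = 2.42e-06), with a pool signal 1.25 lower on tumour arrays. Mmp13, collagenase 3, lay at 3.05, 2.44 and 3.25 in tumours against -0.07, 0.19 and 0.16 in saline tissue, where 1 of 3 arrays measured it above background (2.82 ± 0.33, adjusted p = 9.6e-06). Mmp9, gelatinase B, rose by 2.90 ± 0.31, the membrane-bound Mmp14 by 1.68 ± 0.13 and tissue plasminogen activator, Plat, by 2.98 ± 0.32, each without overlap between groups. The gene that fell was Mmp15, by 0.79, a call lost under median centring and in the red channel alone.

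Promoters of Mmp10 and Mmp13 are shown because they hold an AP-1 motif, the letters TGANTCA (N is any base), which read the same on both strands. It stands in 6 of the 16 genes of the list with a promoter (Mmp3, Mmp7, Mmp10, Mmp12, Mmp13 and Plaur), in 8.97% of all RefSeq genes with a promoter, and in 7.81% of all promoters of this length. Both genes lie on the plus strand of GRCm38.p6. The Mmp10 window is chr9:7502092-7502391, with the match 63 bases before the gene's start, and the Mmp13 window is chr9:7272264-7272563, with the match 35 bases before it. Capitals mark the match.
Mmp10: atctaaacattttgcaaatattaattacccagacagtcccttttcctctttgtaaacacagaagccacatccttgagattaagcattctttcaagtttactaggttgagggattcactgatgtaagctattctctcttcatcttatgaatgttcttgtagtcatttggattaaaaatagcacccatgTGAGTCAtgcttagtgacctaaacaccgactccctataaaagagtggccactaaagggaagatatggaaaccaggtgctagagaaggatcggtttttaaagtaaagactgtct
Mmp13: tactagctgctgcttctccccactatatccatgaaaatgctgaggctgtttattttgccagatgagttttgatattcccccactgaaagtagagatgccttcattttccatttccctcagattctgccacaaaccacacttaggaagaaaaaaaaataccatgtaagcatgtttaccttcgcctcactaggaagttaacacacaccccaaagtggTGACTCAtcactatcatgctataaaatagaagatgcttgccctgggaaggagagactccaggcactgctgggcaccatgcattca

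Stromal and vascular genes were higher in SJW tumours. Of 29 fibroblast and matrix genes, 22 rose and 1 fell (2 without saline replicate 3 or tumour replicate 2), with a median change of 2.10. Col1a1, the main chain of type I collagen, lay at 0.03, 0.05 and -0.55 in tumours and -3.67, -2.92 and -3.50 in saline tissue (3.21 ± 0.43, adjusted p = 3.41e-05). Col4a1, of basement membrane, rose by 2.98 ± 0.23 and Col5a2, of fibrillar collagen, by 3.23 ± 0.31. The member that fell was Fap, fibroblast activation protein, by 0.92 (adjusted p = 0.00502), a call lost without the arrays of bright pool. List means were 0.47, 0.46 and 0.25 in tumours and -1.51, -1.21 and -1.41 in saline tissue. Of 18 endothelial genes, 12 rose and none fell. Sox17, a transcription factor of arterial endothelium, lay at 1.56, 2.41 and 1.83 in tumours and -0.80, -1.40 and -1.54 in saline tissue (3.18 ± 0.34, adjusted p = 4.91e-06), and its 3 probes gave changes of 1.22 to 3.43. Eng, the TGF-beta coreceptor endoglin, rose by 1.51 ± 0.24. In bulk tissue, more cells of a type and more RNA per cell cannot be told apart, and this applies to every cell-type list here. Adipocyte genes went the other way, with 10 of 15 lower and 1 higher (6 lower and none higher without saline replicate 3, 5 lower under median centring). Cidec, a fat droplet protein, lay at -3.41, -2.93 and -3.45 in tumours and 0.10, -1.22 and 0.61 in saline tissue (-3.09 ± 0.36, adjusted p = 9.2e-06). Of 21 enteric neuron and glia genes 2 fell (1 without saline replicate 3, tumour replicate 1 or tumour replicate 3) and none rose. Both counts are below the shares of all genes, 22.5% lower and 13.7% higher. Tac1, the substance P precursor, fell by 1.88 ± 0.26.

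Among leukocyte lists, many macrophage and mast cell genes rose and few lymphocyte genes passed. Of 18 macrophage genes, 10 rose and 1 fell (none without saline replicate 1 or tumour replicate 1), with a median change of 0.80. C1qa, a complement chain made by tissue macrophages, lay at 1.37, 1.20 and 1.13 in tumours and -1.56, -1.56 and -1.18 in saline tissue (2.67 ± 0.30, adjusted p = 7.33e-06). Of 11 mast cell genes, 7 rose and none fell, 4 of them without saline replicate 2 or without tumour replicate 3. Mcpt4, a chymase of connective-tissue mast cells, lay at 2.43, 2.46 and 2.96 in tumours and 0.00, 0.28 and 0.77 in saline tissue (2.26 ± 0.46, adjusted p = 0.00125). Of 14 neutrophil genes, 5 rose and 1 fell (Camp, a call lost without saline replicate 3), and 3 rose without saline replicate 1, saline replicate 3 or tumour replicate 3. S100a8 and S100a9, the calprotectin subunits of neutrophils, rose by 2.05 and 2.03. Both calls were lost without saline replicate 1, saline replicate 3 or tumour replicate 3, with changes of 1.25 and 1.08 in the last case, and that of S100a9 also without saline replicate 2. T and NK cell genes counted 3 up (5 under median centring) and 1 down of 16, with 1 up without saline replicate 2 or tumour replicate 2 and 5 up without saline replicate 3. The 1 down was Prf1, which encodes perforin (adjusted p = 0.0432), a call lost under median centring and when any array but saline replicate 2 was left out. B and plasma cell genes counted 1 up (none without saline replicate 3, tumour replicate 2 or tumour replicate 3) and 2 down (1 without any of these or saline replicate 2) of 18, below the background of 13.7% up and 22.5% down.

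Antigen-presentation genes of MHC class II were higher in 4 of 9 cases and lower in 1, H2-Oa, whose call was lost without saline replicate 1 or 2 or tumour replicate 2 or 3. H2-Aa, the alpha chain of I-A, lay at 0.44, 0.42 and 0.46 in tumours and -1.53, -1.90 and -1.97 in saline tissue, with nearly equal tumour values (2.24 ± 0.37, adjusted p = 0.00021). Its invariant chain Cd74 rose by 1.78 ± 0.31 (adjusted p = 0.000327) and its partner H2-Ab1 by 1.64 ± 0.33 (adjusted p = 0.00112). SJW AOM non-tumour tissue had H2-Aa at -0.28, -0.54 and 0.93. Against saline tissue, it counted 4 of the 9 genes up and none down, with a median change of 1.08, against 0.62 in tumours. Set directly against AOM non-tumour tissue, tumours counted none up and 3 down, with a median of -0.57. Interferon-stimulated genes, by contrast, followed single arrays: list means were -0.03, 0.20 and 0.69 in tumours and -0.12, 0.12 and 1.78 in saline tissue, with saline replicate 3 far above the other saline arrays. Of 26 such genes 1 rose and 4 fell, below the shares of all genes, 13.7% up and 22.5% down. When saline replicate 3 was left out 5 rose, and none rose without saline replicate 1, saline replicate 2 or tumour replicate 3.

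**Figure D3:**
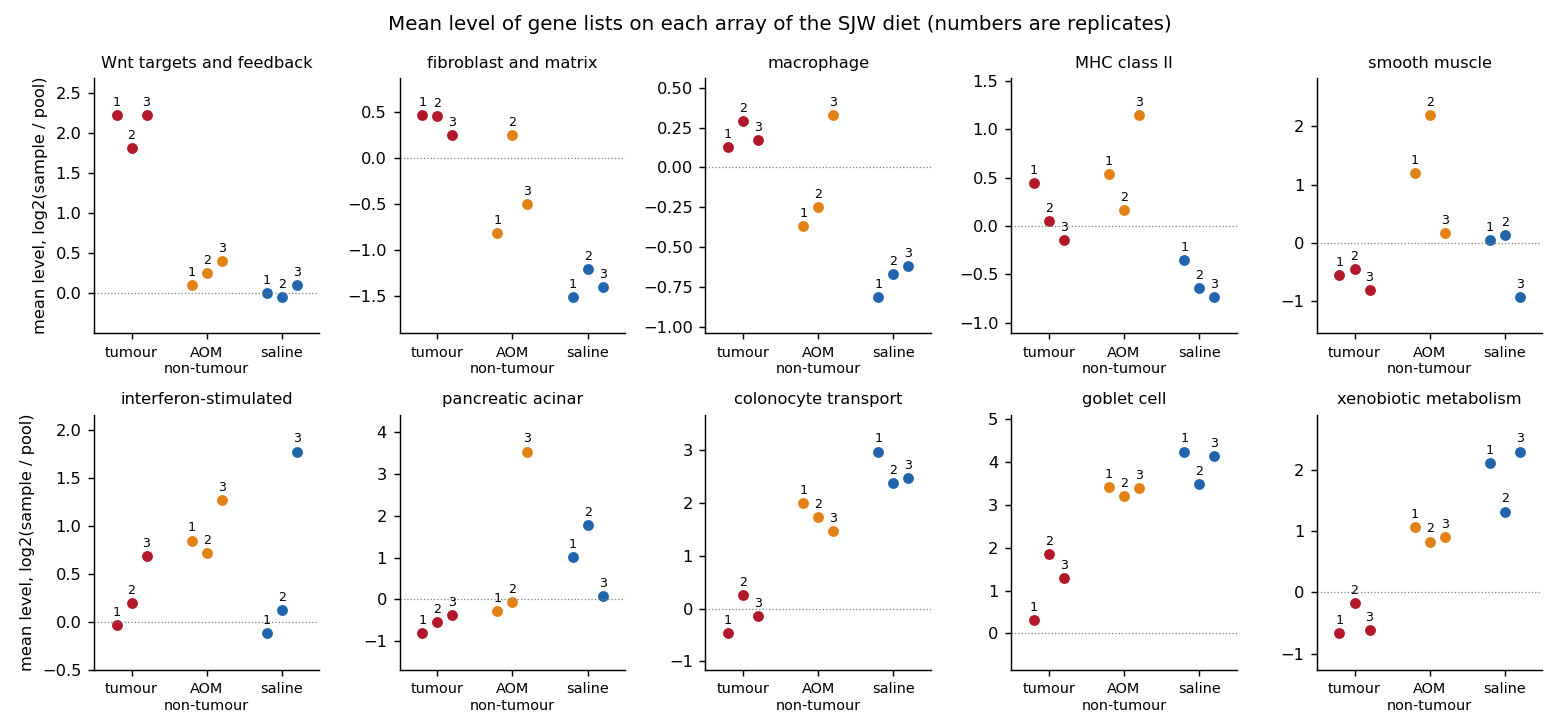
Mean level (log2 of sample over pool) of 10 gene lists on each array of SJW tumour, SJW AOM non-tumour and SJW saline tissue, with replicate numbers beside the points. Wnt, fibroblast, macrophage, colonocyte, goblet and xenobiotic lists separate the 3 tumour from the 3 saline arrays, whereas the smooth muscle, interferon and pancreatic lists are spread by single arrays.

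Smooth muscle and pancreatic genes also varied between samples of a group. Smooth muscle genes counted 1 up and 1 down of 18 (0 to 1 in each direction when 1 array was left out), with list means of -0.55, -0.45 and -0.81 in tumours, 1.20, 2.20 and 0.18 in AOM non-tumour and 0.06, 0.13 and -0.92 in saline tissue. Des, the muscle filament desmin, lay at -1.59, -1.59 and -2.32 in tumours and 0.33, 0.58 and -1.73 in saline tissue, which overlapped (-1.56 ± 0.81, adjusted p = 0.149). Of 17 pancreatic acinar genes 6 fell, with list means of -0.81, -0.53 and -0.37 in tumours and 1.02, 1.78 and 0.08 in saline tissue. Pancreatic markers thus differed from sample to sample within saline tissue, and their part in other changes was not tested.

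Inflammatory mediators moved unevenly. Of 31 cytokine and NF-kB target genes, 16 rose and 4 fell, with a median change of 0.66. Cxcl5, a neutrophil-attracting chemokine, lay at 1.45, 2.38 and 3.57 in tumours and -0.71, 0.02 and -1.47 in saline tissue, with 1 of 3 saline arrays above background (3.19 ± 0.56, adjusted p = 0.000373). Il11, a stromal cytokine of the IL-6 family, rose by a small but even amount, at 0.47, 0.56 and 0.67 in tumours against -0.43, -0.29 and -0.49 in saline tissue (0.97 ± 0.11, adjusted p = 5.91e-06). Lcn2, an iron-scavenging acute-phase protein, lay at -3.42, -3.62 and -0.58 in tumours and -5.32, -5.31 and -5.40 in saline tissue (2.80 ± 0.64, adjusted p = 0.00278), with tumour replicate 3 far above the others and a change of 1.82 without it. Tnf missed the threshold (0.66, adjusted p = 0.0838). Il1a, the epithelial form of interleukin 1, was lower, at 0.14, 0.90 and 0.70 in tumours and 2.10, 2.07 and 2.01 in saline tissue (-1.48 ± 0.28, adjusted p = 0.000703), though its other probe gave 0.87 and the call was lost with the mean of both.

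Of 24 ERK feedback and immediate early genes, 14 were higher and 3 lower, with a median of 0.66. The 3 lower ones were Spry2, Ier2 and Egr3, by 0.52, 0.38 and 0.49, and none stayed lower under median centring or without tumour replicate 3. Phlda1 lay at 2.49, 2.29 and 2.81 in tumours and 0.29, 0.35 and 0.43 in saline tissue (2.18 ± 0.17, adjusted p = 2.32e-07). Dusp4, a phosphatase that inactivates ERK, rose by 2.66 ± 0.27 (adjusted p = 2.4e-06), and Etv5, an ETS transcription factor, by 2.56 ± 0.37 (adjusted p = 6.94e-05). Among p53 targets, 7 of 20 rose and 4 fell. Phlda3, a p53-induced inhibitor of AKT, lay at 0.78, 1.36 and 1.68 in tumours and -1.33, -1.64 and -1.69 in saline tissue (2.83 ± 0.25, adjusted p = 6.84e-07). Bax, which permeabilises mitochondria in apoptosis, rose by 1.12 ± 0.14, and Perp, a junctional p53 target, fell by 1.34 ± 0.16. The count of 4 was 2 under median centring and without saline replicate 1 or tumour replicate 3. In the insulin-like growth factor family, 5 of 11 measured genes rose and 2 fell (4 without tumour replicate 2). Igfbp7, Igfbp4 and Igfbp5, binding proteins of stroma, rose by 2.89 ± 0.21, 2.85 ± 0.30 and 2.69, and Igf1 by 1.93 ± 0.28. Igf1 lay at 0.88, 1.34 and 1.05 in tumours and -1.20, -0.63 and -0.69 in saline tissue, without overlap.

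Proliferation genes changed by small amounts. Of 29 measured, 8 rose and none fell, with a median change of 0.32 and a range of -0.46 to 0.88. Mcm3, a subunit of the replicative helicase, lay at 1.19, 0.76 and 0.98 in tumours and 0.38, -0.09 and -0.02 in saline tissue (0.88 ± 0.16, adjusted p = 0.000619). Pcna, the replication clamp, rose by 0.73 ± 0.14 (adjusted p = 0.000754). Mki67, the antigen of cycling cells, did not pass and pointed down, at 1.39, 1.37 and 1.38 in tumours and 1.62, 2.03 and 1.85 in saline tissue (-0.46 ± 0.21, adjusted p = 0.105). Under median centring 17 members rose, with a median of 0.72, and in the red channel alone 14. Ribosome biogenesis genes counted 14 up and 1 down of 24, with a median of 0.40. That count was 7 without saline replicate 3 or tumour replicate 1, 9 without saline replicate 2 or tumour replicate 3, 8 with the scanner's log ratio or the red channel alone, and 4 in the deposited table.

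Most colonocyte transport genes fell. Of 28 measured genes for ion, water and solute transport, 24 were lower in SJW tumours and none higher, with a median change of -2.72. Car4, the membrane carbonic anhydrase of surface colonocytes, lay at -3.67, -2.42 and -2.73 in tumours and 3.59, 3.06 and 3.06 in saline tissue. Every tumour array was below the pool and every saline array above it, a 72.3-fold lower level (-6.18 ± 0.40, adjusted p = 6.43e-08). Slc26a3, the chloride-bicarbonate exchanger, lay at 0.01, 1.16 and 0.68 in tumours, where 2 of 3 arrays were above background, and 7.33, 6.23 and 6.89 in saline tissue (-6.20 ± 0.38, adjusted p = 5.3e-08). Its pool signal was 1.04 lower on tumour arrays, and over the scaling alternatives the change was -6.49 to -5.30. Aqp8, the water channel of colonocytes, lay at -2.25, -0.08 and -1.57 in tumours and 4.60, 3.78 and 4.50 in saline tissue (-5.60 ± 0.46, adjusted p = 3.92e-07), and at a change of -6.20 without tumour replicate 2. Slc16a1, the transporter that takes up the bacterial fuel butyrate, fell evenly, at -0.11, -0.38 and -0.68 in tumours against 2.54, 2.40 and 2.52 in saline tissue (-2.88 ± 0.17, adjusted p = 4.58e-08). The sugar-phosphate exchanger Slc37a2 was 19.4-fold lower and Guca2a, the guanylin peptide that sets fluid secretion, 17.4-fold lower, with a pool signal 1.15 lower on tumour arrays. Slc9a3, the sodium-proton exchanger, did not pass (0.30).

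The Aqp8 promoter is shown as 1 of 3 among 18 genes of this list (Car4, Aqp8 and Slc20a1) whose window holds TTTATNG on either strand, the core letters bound by CDX homeobox factors of the intestine. The letters stand in 12.5% of all RefSeq genes with a promoter and in 10.9% of all promoters of this length. Its window is chr7:123462044-123462343 on GRCm38.p6, plus strand, and the match, in capitals, starts 6 bases before the gene's start.
Aqp8: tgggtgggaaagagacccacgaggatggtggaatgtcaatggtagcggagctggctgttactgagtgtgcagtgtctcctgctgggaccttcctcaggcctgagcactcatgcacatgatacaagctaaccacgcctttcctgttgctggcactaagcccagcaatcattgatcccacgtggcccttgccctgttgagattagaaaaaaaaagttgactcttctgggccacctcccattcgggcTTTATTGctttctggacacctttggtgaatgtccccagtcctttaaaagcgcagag

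Of absorptive enterocyte genes, 23 of 26 fell and none rose, with a median of -2.14. Mep1a, a brush-border protease, lay at -1.88, -1.0 and -1.92 in tumours and 1.60, 0.84 and 1.50 in saline tissue (-2.91 ± 0.23, adjusted p = 3.48e-07). Klf4, a transcription factor of mature surface cells, lay at -0.43, 0.21 and -0.13 in tumours and 2.17, 2.00 and 2.15 in saline tissue (-2.23 ± 0.17, adjusted p = 2.79e-07). Cdx1, a homeobox factor of intestinal identity, lay at 2.77, 2.68 and 2.70 in tumours and 6.16, 5.52 and 5.91 in saline tissue (-3.14 ± 0.35, adjusted p = 6.01e-06). It fell yet stayed above the pool on every array. Its relative Cdx2 fell by 2.88 ± 0.59, a call lost with the scanner's log ratio and the deposited table, with changes of -3.49 to -0.39 over the scaling alternatives and a pool signal 1.15 lower on tumour arrays. Of 19 general epithelial genes, 14 fell, 1 rose (Cldn4, lost without tumour replicate 2) and all 19 stayed at least 1 log2 unit above the pool in both groups. This list shares Cdx1, Cdx2, Vil1 and Krt20 with the absorptive list, so the counts are not separate results.

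Of 19 claudin and tight junction genes 11 fell and 2 rose, with 4 lower under median centring. Cldn8, a sealing claudin of distal colon, lay at -0.66, 1.00 and 0.41 in tumours and 3.20, 3.41 and 2.31 in saline tissue (-2.72 ± 0.42, adjusted p = 0.000137). Claudin counts of 2 up were 1 without tumour replicate 1 or 2.

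Of 27 measured factors of gut position, 4 rose and 9 fell, with a median of -0.34. Over all genes, 13.7% rose and 22.5% fell. Onecut2, a factor of the proximal gut, lay at 2.12, 2.01 and 2.16 in tumours and -1.03, -0.60 and -1.18 in saline tissue, with 2 of 3 saline arrays above background (3.03 ± 0.25, adjusted p = 3.96e-07). Of the 26 small-intestine genes, 2 rose, 10 fell and 14 did not pass. Hoxd13 and Hoxb13, the most posterior homeobox genes, did not pass (-0.70 and -0.78).

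Secretory lineages were lower too. Of 17 goblet cell genes 15 fell and none rose, with a median change of -2.87, and the list means were 0.31, 1.86 and 1.30 in tumours and 4.25, 3.49 and 4.14 in saline tissue. Tumour replicate 1 had the lowest of the tumour means. Zg16, a lectin of the mucus layer, lay at 0.65, 2.84 and 2.20 in tumours and 6.51, 6.23 and 6.82 in saline tissue (-4.63 ± 0.47, adjusted p = 2.67e-06), and at a change of -4.00 without tumour replicate 1. Atoh1, the transcription factor that commits cells to the secretory fate, lay at -0.28, 0.82 and 0.32 in tumours, with 2 of 3 arrays above background, and 4.72, 3.30 and 4.51 in saline tissue (-3.89 ± 0.43, adjusted p = 6.17e-06). Agr2, a disulfide isomerase needed for mucin folding, fell by 3.16 ± 0.31. Muc2 itself, the gel-forming mucin, lay at 3.63, 6.45 and 5.08 in tumours and 8.31, 7.08 and 8.40 in saline tissue (-2.87 ± 0.56, adjusted p = 0.000956), with a pool signal 1.56 lower on tumour arrays and the call lost without the arrays of bright pool.

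Of 26 enteroendocrine genes 16 fell and 1 rose (none under median centring or when any array but saline replicate 1 was left out), with a median of -0.94. Gcg, the precursor of glucagon-like peptides, lay at 0.56, 1.42 and 0.97 in tumours and 5.55, 4.38 and 5.76 in saline tissue (-4.24 ± 0.35, adjusted p = 3.92e-07). Insl5, a colonic hormone of the same cells, lay at -0.04, 1.18 and 0.84 in tumours and 4.15, 3.95 and 2.93 in saline tissue (-3.02 ± 0.43, adjusted p = 7.06e-05). Chga, a granule protein shared by most endocrine cells, fell by 2.52 ± 0.32 (adjusted p = 2.37e-05). The 1 member that rose, Cpe, by 0.90, was not called under any of the scaling alternatives or when any array but saline replicate 1 was left out. Pyy, another hormone of these cells, fell by 3.07, but its pool signal was 3.43 higher on tumour arrays and the red channel alone gave 0.97, so its direction is not settled.

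Paneth cell genes split. Of 16 listed genes 9 were measured, of which 5 rose and 2 fell. Defa22, an antimicrobial alpha-defensin, lay at 2.54, 2.44 and 4.65 in tumours and -0.28, -0.43 and 0.01 in saline tissue (3.44 ± 0.48, adjusted p = 4.78e-05), with tumour replicate 3 the highest and a change of 2.72 without it. Defensin genes are near-identical copies, so their probes may share signal. Lyz1, the Paneth cell lysozyme, rose by 2.23 ± 0.39, beside a rise of 2.66 ± 0.39 in its macrophage paralog Lyz2. Mptx1, a pentraxin, fell by 4.04, with a pool signal 2.23 lower on tumour arrays.

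Enzymes that detoxify drugs and diet chemicals were the other large loss. Of 47 xenobiotic metabolism genes, 40 fell and 1 rose (2 without tumour replicate 2), with a median change of -2.55. This list is of interest on a diet of St. John's wort, whose constituent hyperforin activates the nuclear receptor PXR. Most of it fell on the control diet too: between control tumours and control saline tissue, 33 of the 47 genes fell and 2 rose, with a median change of -1.92. Cyp2c55, a cytochrome P450 of the large intestine, lay at -0.95, -0.59 and -0.81 in tumours and 5.89, 4.85 and 6.62 in saline tissue. It was the largest fall of any gene with a proper symbol, 94.9-fold (-6.57 ± 0.48, adjusted p = 1.41e-07). Ces2a, a carboxylesterase, lay at 0.46, 1.33 and 0.74 in tumours and 6.20, 4.07 and 5.82 in saline tissue (-4.52 ± 0.53, adjusted p = 1.01e-05), and at a change of -5.17 without saline replicate 2. Abcb1a, the efflux pump P-glycoprotein, lay at 0.88, 1.40 and 0.98 in tumours and 4.60, 3.89 and 5.18 in saline tissue (-3.47 ± 0.29, adjusted p = 4.77e-07). Sult1c2, a sulfotransferase, lay at -1.95, -1.42 and -2.18 in tumours against 2.01, 1.68 and 2.50 in saline tissue (-3.91 ± 0.25, adjusted p = 5.72e-08). Cyp3a11, a classical PXR target of liver, changed less (-1.54 ± 0.26, adjusted p = 0.000253). In each of these 5 genes the saline arrays spanned a wider range than the tumour arrays, with saline replicate 2 the lowest of the 3. The pump that rose was Abcc2, at a mean of 0.91 in tumours and -0.98 in saline tissue, where no array was well above background, at least 3.92-fold higher (adjusted p = 6.56e-05).

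Mitochondrial genes fell by smaller and more even amounts. Of 32 respiratory chain subunits 30 were lower and none higher, with a median of -0.96, and leaving out any 1 array gave 30 lower each time, with 1 higher without saline replicate 3 or tumour replicate 2. Cox4i1, of cytochrome c oxidase, lay at -1.01, -1.0 and -1.05 in tumours and 0.42, 0.02 and 0.49 in saline tissue (-1.33 ± 0.15, adjusted p = 6.59e-06). Ndufa4 was outside the count (0.48, adjusted p = 0.0555). In the authors' deposited table, which holds fewer genes, 14 passed. Of 25 genes for fatty acid oxidation and ketogenesis 23 fell and 1 rose, with a median of -1.37. Cpt1a, which loads fatty acids for import into mitochondria, lay at -0.17, 0.02 and -0.19 in tumours and 1.46, 1.09 and 1.52 in saline tissue (-1.47 ± 0.14, adjusted p = 1.69e-06). Hadh, of the beta-oxidation spiral, fell by 1.84 ± 0.20 and Bdh1, which interconverts ketone bodies, by 1.87 ± 0.20. Pdk4, which spares glucose from oxidation, rose by 0.64, a call lost without saline replicate 2 or tumour replicate 3.

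Sterol synthesis genes were lower in all 22 cases by sign, but 11 passed, with a median of -0.61, and 5 passed under median centring. Of 18 clock genes 10 fell and 1 rose (none without saline replicate 1 or 2), with 5 lower under median centring. Dbp, a clock output factor, lay at -2.0, -1.36 and -1.82 in tumours and 0.16, 0.34 and 0.02 in saline tissue (-1.90 ± 0.19, adjusted p = 1.87e-06). The time of day of collection is not given. Glycolysis and hypoxia genes counted 3 up and 10 down of 24, with a median of -0.16, and the 10 were 5 under median centring and 3 in the authors' deposited table. Antioxidant genes of the NRF2 pathway counted 6 up and 7 down of 24, and 5 up and 2 down under median centring. With loess the shares over all genes were 13.7% up and 22.5% down. Hmox1, heme oxygenase, was among those that rose, at 1.87, 1.35 and 0.80 in tumours and -0.67, -0.51 and -0.79 in saline tissue (2.00 ± 0.26, adjusted p = 3.11e-05).

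**Figure D4:**
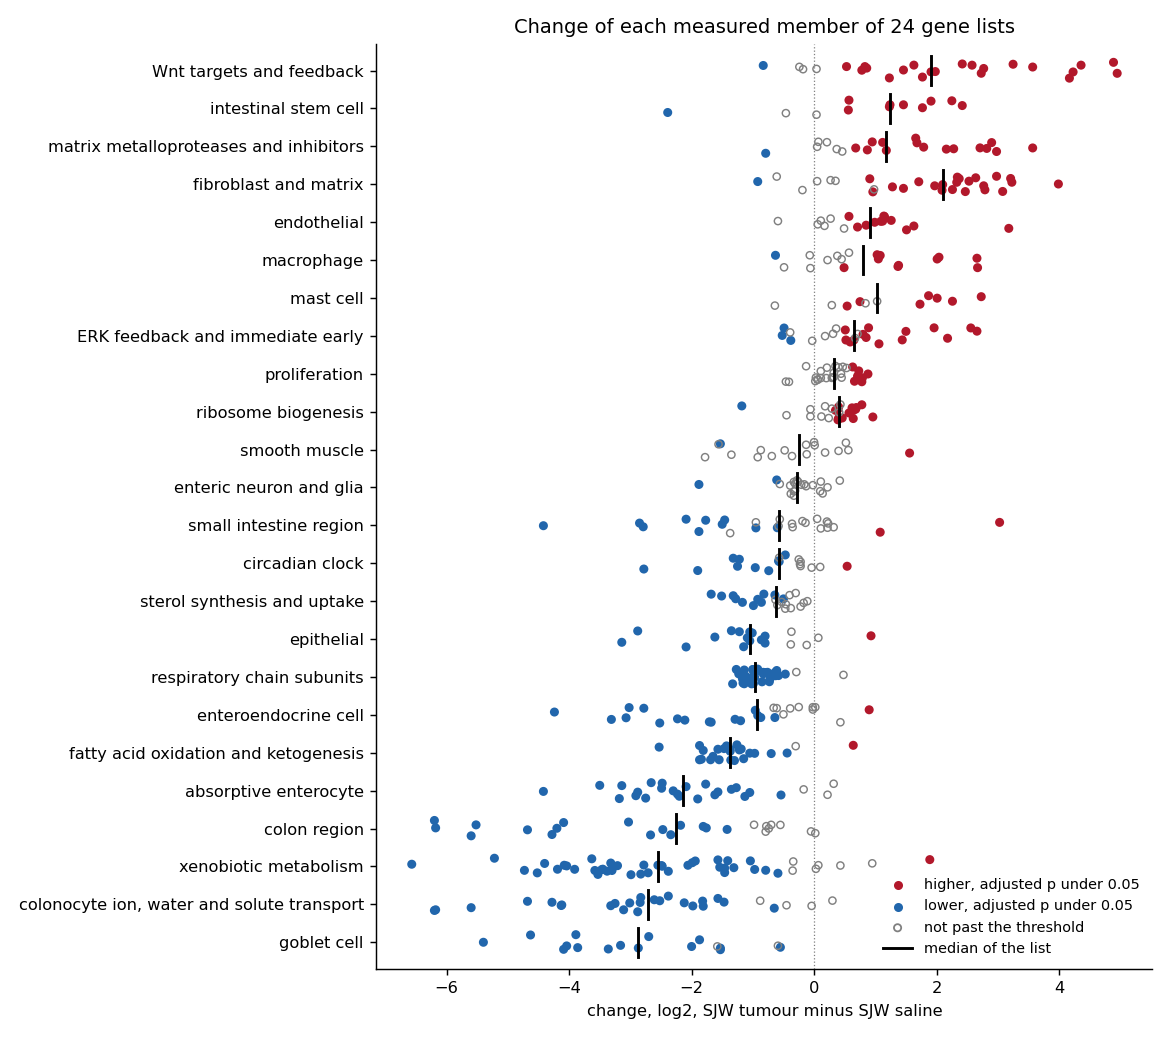
Change (log2, SJW tumour minus SJW saline) of each measured member of 24 gene lists, filled red where higher and blue where lower at an adjusted p under 0.05, open where not past it, with a bar at each list's median. Wnt, protease and stromal lists lie to the right, colonocyte, goblet and xenobiotic lists far to the left, and respiratory chain subunits form a narrow band near -0.96.

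SJW AOM non-tumour tissue was the other group on the same diet. Its contrast shares the saline arrays with the comparison above, so the values are set side by side. The AOM non-tumour arrays lay on slides 1, 2 and 3, scanned on the first scan day, like the saline arrays and unlike the tumour arrays. Slide and scan day therefore cannot be told apart from tumour here either. Against SJW saline tissue, AOM non-tumour tissue had 171 genes higher (0.656%) and 125 lower (0.479%). Wnt genes counted 1 up of 25, and their median change from saline tissue was 1.91 in tumours and 0.08 in AOM non-tumour tissue. Metalloproteases counted none, with medians of 1.18 in tumours and 0.20 in AOM non-tumour tissue, and respiratory chain subunits none, with -0.96 and -0.18. Fibroblast genes counted 10 up of 29 in AOM non-tumour tissue, with medians of 2.10 in tumours and 1.11 there. Xenobiotic genes counted 8 down of 47 there, with medians of -2.55 in tumours and -0.82 in AOM non-tumour tissue. Colonocyte transport genes counted 3 down of 28, with -2.72 and -0.81. Cyp2c55 lay at 4.32, 3.52 and 3.35 and Abcb1a at 2.88, 2.18 and 2.47 in AOM non-tumour tissue, between the tumour and the saline values on every array. Notum lay at -0.31, -0.11 and 0.18 and Klf4 at 2.04, 2.40 and 1.95 there, close to saline tissue. Defa23, an alpha-defensin, lay at 3.65, 2.28 and 5.14 in tumours, 2.04, 2.94 and 3.71 in AOM non-tumour and -0.85, -0.45 and -0.01 in saline tissue, with 1 of 3 saline arrays above background. Tumour and AOM non-tumour values of Defa23 overlapped, and its change of 4.13 ± 0.57 in tumours (adjusted p = 4.42e-05) was 4.83 without tumour replicate 2 and 3.40 without tumour replicate 3.

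The same contrast on the control diet compares none of these 6 arrays, though 1 fit of all 18 arrays gives both their spread. Control tumour arrays also lay on slides 4 and 5 (second scan day), control saline arrays on slides 1, 2 and 3 (first). Slide and scan day thus cannot be told apart from tumour in either contrast. The control-diet contrast had 3449 genes higher (13.2%) and 5118 lower (19.6%) in tumours than in saline tissue. Genes higher in both numbered 2211, which is 62.1% of the SJW list and 64.1% of the control list, and genes lower in both 3545, 60.4% and 69.3%. Only 3 genes called higher on SJW were called lower on the control diet, and 4 the reverse. The test of the difference between diets, by limma in the same fit, called none of 26073 genes, with 2535 at an unadjusted p under 0.05, 35 called without SJW saline replicate 1 and 1 without SJW tumour replicate 2. With all arrays, no gene can therefore be called particular to the SJW diet. List medians were, for Wnt genes, 1.91 on SJW and 1.94 on the control diet, and for colonocyte transport, -2.72 and -2.50. For xenobiotic metabolism they were -2.55 and -1.92. Abcb1a changed by -3.47 on SJW and -1.90 on the control diet (unadjusted p = 0.00162 for the difference, adjusted p = 0.392). Its mean levels were 1.09 in SJW and 1.32 in control tumours, and 4.56 and 3.22 in saline tissue. Mean levels in SJW and control saline tissue were 5.36 and 3.77 for Ces2a, and 5.79 and 3.99 for Cyp2c55. Changes on the 2 diets were alike for Cyp3a11 (-1.54 and -1.57) and the carboxylesterase Ces2c (-5.22 and -5.31).

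Some lists differed more in their counts, without a gene that passed the test of the difference. MHC class II genes counted 4 up and 1 down on SJW and 1 up and 3 down on the control diet. H2-Aa changed by 2.24 on SJW and 0.47 on the control diet (unadjusted p = 0.00355 for the difference), and Cd74 by 1.78 and 0.13 (unadjusted p = 0.00153). Mean levels of H2-Aa were 0.44 in SJW and 0.25 in control tumours, and -1.80 in SJW and -0.23 in control saline tissue. Those of Cd74 were 0.01 and -0.28 in tumours, and -1.77 and -0.41 in saline tissue. Both genes thus differed more between diets in saline tissue than in tumours. Proliferation genes counted 8 up of 29 on SJW and 21 on the control diet, with median changes of 0.32 and 0.71. Under median centring the SJW count was 17, so the gap in counts depends on the normalization. The control-diet count under median centring is not given here. Among the smallest p-values of the difference, Akr1b8, an aldo-keto reductase, changed by -0.77 on SJW and 0.51 on the control diet (unadjusted p = 3.78e-05), a fall on SJW that was not called under median centring or without the arrays of bright pool. Noxo1, which organises the epithelial NADPH oxidase, changed by -1.55 and -0.26 (unadjusted p = 4.51e-05), and Nox1, the oxidase itself, by -0.30 and 1.67 (unadjusted p = 0.000134). The adjusted p of the difference was 0.392 for Akr1b8, Noxo1 and Nox1.

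**Figure D5:**
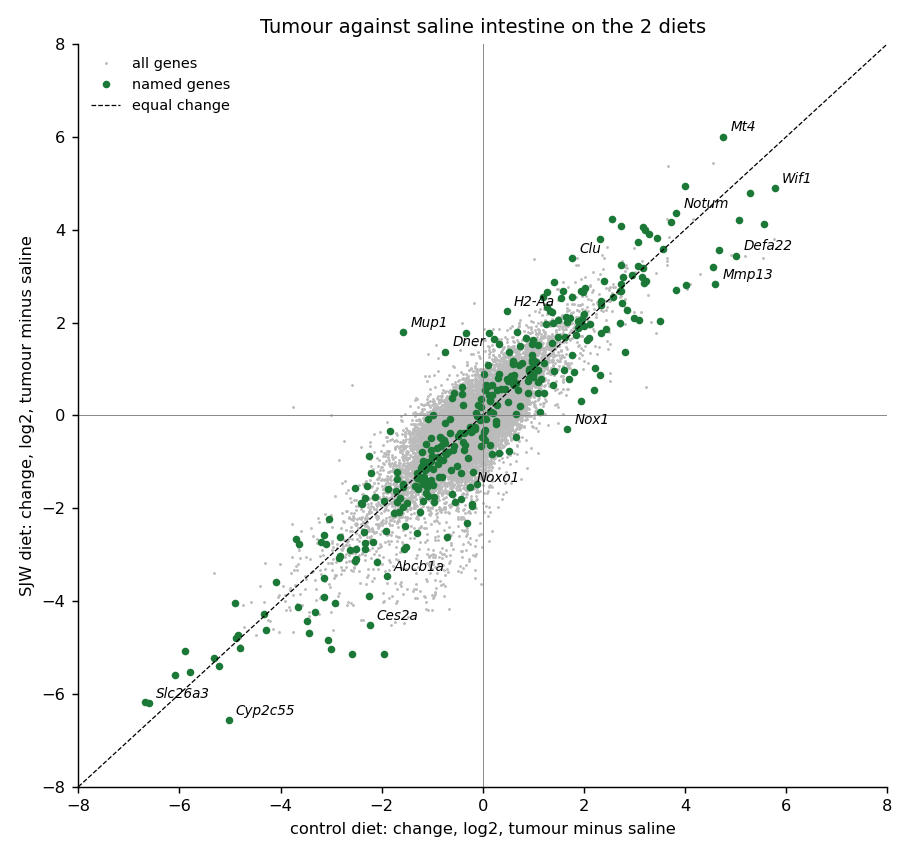
Change between tumour and saline tissue (log2) of each gene on the SJW diet (vertical axis) and the control diet (horizontal axis), with named genes in green and the line of equal change dashed. Most named genes lie near the line, and Nox1, Noxo1, H2-Aa and Mup1 lie off it, although no gene passed the test of the difference.

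Over the 6 arrays, the genes whose level followed Notum most closely were Mmp11, Tead2, Rac3, Eya2 and Tubb2b, with Pearson correlations of 0.9986 to 0.9995. Their changes ranged from 0.57 for Eya2 to 2.75 for Rac3. Those that followed Car4 included Gstt3, Rab33b, Vipr1 and Vsig10, at 0.9983 to 0.9991 and changes of -2.11 to -0.87. With 2 groups that stand apart, any gene with a tight difference gives a correlation of this size, so the values only describe likeness over these arrays.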

How the data were processed

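Gene expression was measured on 2-colour Agilent mouse arrays of 45018 spots, 1639 of them controls. Per the file headers, spots were read with Agilent Feature Extraction 10.10.1.1 (protocol GE2_1010_Sep10), and array annotation used mm9. The deposited scanner files give the intensity of each spot in both channels and the scanner's processed log10 ratio of red over green. The authors' deposited value table holds log2 ratios of red over green, with further steps not given in the sources used here.

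Spot intensities were background-corrected with normexp (offset 50) and normalized by loess within arrays. Probes were kept where red was well above background on all 3 arrays of any group (34081 of 41174), and the brightest probe stood for a gene. All 18 arrays entered 1 limma fit (limma 3.58.1, R 4.3.3) of 6 group means with 12 residual degrees of freedom. An exact test of 3 against 3 samples cannot go below p = 0.10. No kept gene was saturated on the 6 arrays. The number of arrays limits precision: the median standard error of a change was 0.18.

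Genes were named by rule: the 15 largest changes in each direction without overlap, the 4 members of each list with the smallest p, members needed for counts of 5 or fewer, a fixed set, and the smallest p-values of the diet difference. Fabp1, Mgam and Rbp2, outside it, were named after their values were seen. Some genes that the rule names are not reported here. The members and lists were chosen with earlier results of these data known. Promoters came from RefSeq (GRCm38.p6), matched by symbol. The fit was tested on simulated data. Replicate numbers did not pair the samples (r = 0.0596, 0.0216 and 0.0210 over the pairs). Alternatives are given at the end.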

Additional observations from a re-analysis of the deposited data

How the results depend on the processing

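The 9428 called genes became 6790 to 9868 under other normalizations and channels (7726 of 22964 genes tested in the deposited table), and 11596 with array weights. Median centring left 2641 genes lower, against 5868. Leaving out the arrays of bright pool, which leaves 1 SJW saline array assumed to vary like the others, gave 5255 called, 1745 up and 3510 down. Testing against a change of 1 log2 unit gave 772, 235 up and 537 down. Without 1 array the total ranged from 7331 to 8664, with 2674 to 3095 up and 4657 to 5569 down. The diet difference called 0 genes under the other settings but 35 without SJW saline replicate 1 and 1 without SJW tumour replicate 2 (range 0 to 35). With the replicate block, which the pairing check did not bear out, 9113 genes were called, 3392 up and 5721 down. Of 346 named genes over 19 settings (6480 values), 6016 kept direction and side of the threshold, 355 lost it, 103 gained it and 6 reversed: Kremen1 (3.50), Bmpr1a (0.61) and Pyy (0.97) in the red channel alone, Pfkp (0.01) in the deposited table, Alpi (-0.92) with the mean of probes and Il6 (-0.11) under median centring. For Kremen1 and Pyy the pool signal differed between groups by 3.08 and 3.43. For Bmpr1a the pool signal differed by 0.99. The 2 probes of Alpi gave changes of -2.16 and 0.32, which the mean of probes averages. The cause of the reversals of Bmpr1a, Pfkp and Il6 was not tested. Probes below background on all arrays of a group have only a bound there (1241 genes).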
